A study of Homo sapiens with 12 samples.

Results

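Long intergenic noncoding RNAs (lincRNAs) were examined in spheroids of SBC3, an established human small cell lung cancer cell line. Members were chosen by their symbol, LINC and a number, and selected on measured level: a group mean of at least 1 CPM (read counts scaled to a fixed library total) in at least 1 of 4 groups. This gave 161 members among 2267 LINC-numbered rows and 60649 rows in all. The groups, of 3 libraries each, were an untreated control, teriflunomide, lurbinectedin, and both drugs together, all in SBC3 spheroids with no other genetic change named. Teriflunomide blocks DHODH, an enzyme of pyrimidine synthesis; lurbinectedin binds DNA and stops transcribing RNA polymerase II. The labels state neither dose nor duration, and SBC3 is a single line. The study asks how teriflunomide acts together with chemotherapy in this cancer.

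LincRNAs are transcribed by RNA polymerase II, and most are capped, spliced and polyadenylated like messenger RNAs without encoding a protein. Many stay in the nucleus, are made at low levels and are degraded by the nuclear exosome, while Integrator and the cleavage and polyadenylation machinery end their transcription. Some act on neighbouring genes, some host microRNAs, and for many no function is known; LINC symbols with a number are given to genes with no better-known role.

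The LINC number does not fix a gene's biotype or place. In GENCODE 29, 131 members were annotated as lincRNA, 12 as processed transcript, 7 as transcribed unprocessed pseudogene and 2 as protein coding. By the coordinates of the count files, 62 members shared exonic bases with another gene, and 32 more lay over or inside another gene without shared exonic bases. A further 12 overlapped nothing but started within 1 kb of a start on the other strand, and 55 did none of these. Because the use of strand in counting is not stated, reads of a member and of a gene that overlaps it cannot be told apart.

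Hosts of microRNAs illustrate what some of these transcripts carry, so the mature sequences of those on the same strand are shown with the seed, bases 2 to 8, in capitals (RefSeq, GRCh38.p14). MIR9-2 lies in an exon of LINC00461, MIR30C2 in an exon and MIR30A in an intron of LINC00472, and MIR4510 in an intron of LINC02853.
hsa-miR-9-5p: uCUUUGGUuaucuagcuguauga
hsa-miR-30c-5p: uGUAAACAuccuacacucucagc
hsa-miR-30a-5p: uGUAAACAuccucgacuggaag
hsa-miR-4510: uGAGGGAGuaggauguaugguu
The miR-30c and miR-30a guide strands share a seed, and the other seeds differ from it and from each other. The libraries hold polyadenylated RNA, so they measure the host transcripts and not the mature microRNAs.

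Total counts per library were between 23206414 and 33222162. The mitochondrial share of counts was 6.80% ± 0.480 (SD, n = 3) in control, and reached 22.6% in teriflunomide replicate 3 and 24.9% in combination replicate 2, which stood apart from the other libraries of their groups. The label was checked against markers. Of the neuroendocrine markers, INSM1 had no count in any library and NCAM1 and CHGA were near 0, while SYP averaged 16.8, NEUROD1 4.03 and DLL3 1.96 normalised CPM in control. YAP1, a marker of the non-neuroendocrine subtype, averaged 246. Of the other cell types, KRT8 was at 243 and COL1A1 at 266 normalised CPM in control, while EPCAM, DCN, LUM and CD3E were at or near 0.

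The members took 0.190% ± 0.00537 (SD, n = 3) of all counts in control. The teriflunomide group had 0.210% ± 0.00793, the lurbinectedin group 0.116% ± 0.00509 and the combination 0.134% ± 0.0135. Each of the libraries given lurbinectedin, alone or combined, lay below each library without it. The same group levels admitted the members: 26 entered through control and teriflunomide only and 10 through lurbinectedin and the combination only. These shares are therefore a description and stand as no support for a direction. The mitochondrial share differed between the groups too, at 13.2% ± 8.20, 15.8% ± 1.81 and 17.5% ± 6.45 in the same order, and its part in these shares was not tested. Markers of other cell types moved with lurbinectedin as well. The summed level of the 4 fibroblast markers was 519 to 549 normalised CPM in control and 186 to 220 with lurbinectedin, with COL1A1 going from a mean of 266 to 107 and LUM at 0 in all libraries. The 4 epithelial markers summed to 236 to 252 and then 400 to 433, almost all of it KRT8. The 3 blood markers summed to at most 0.302 and then to between 1.45 and 2.42. Almost all of this was CD14, from a mean of 0.110 to 1.86. PTPRC was at 0.0211 and 0.0130, and CD3E at 0. The 3 endothelial markers summed to between 0.418 and 0.568 in control and to between 0 and 0.0782 with lurbinectedin. YAP1 went from 246 to 64.9. The part of these markers in the members' levels was not tested. In bulk RNA, fewer cells of a type and less RNA per cell cannot be told apart.

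**Figure D1:**
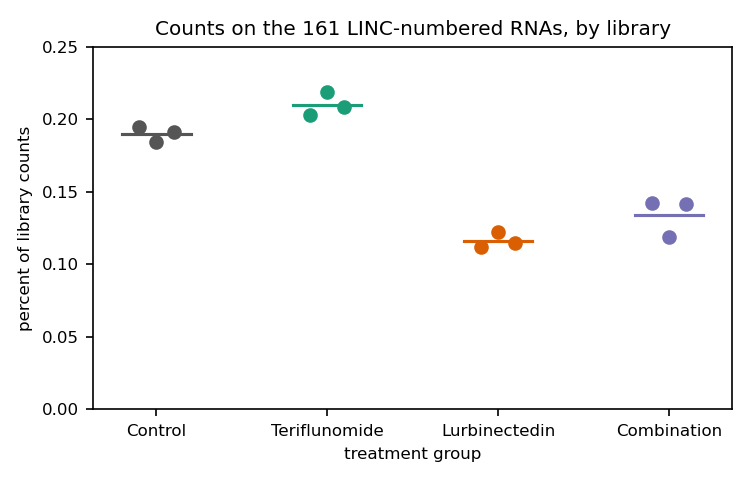
Percent of each library's counts on the 161 members (vertical axis) in the 4 treatment groups (horizontal axis); points are libraries and lines are group means. The lurbinectedin libraries centre on 0.116% and the control libraries on 0.190%, with no overlap. The same group levels admitted the members, so this is a description.

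Levels were very uneven. The 3 most abundant members held 30.7% of the members' summed level, and the 20 most abundant held 66.1%. Below, levels are normalised CPM, counts scaled by TMM library factors. LINC01140 (ENSG00000267272.5, chr1:87129765-87169198) had the highest level, with a mean of 204 over the 12 libraries. LINC01235 (chr9:13406380-13488125) followed at 182, and LINC00461 (chr5:88507546-88691057) at 108. All 3 share exonic bases with another gene. Per kilobase of exon, LINC01235 was the highest member at 60.3, LINC01140 stood at 30.3 and LINC00461, with its long exons, at 5.68. The median member had 0.917 per kilobase.

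The abundant members did not share a response. LINC01140 had 257, 244 and 249 in the control libraries and 153, 155 and 151 with lurbinectedin, groups far apart, a log2 change of -0.71 ± 0.08 (SE, adjusted p = 3.15e-06). LINC00958 went the other way, from 25.7, 26.0 and 26.3 to 56.4, 55.3 and 54.3, a change of 1.09 ± 0.15 (adjusted p = 1.86e-05). LINC00461 lay between 94.7 and 99.3 in control and between 85.3 and 110 with lurbinectedin, overlapping groups with a change of 0.02 ± 0.15. LINC00997, which shares exonic bases with another gene, was at 68.3, 69.3 and 170 with teriflunomide. The value of 170 came from the library with the highest mitochondrial share of its group, and the change, 0.68 ± 0.28, did not pass the test (adjusted p = 0.149).

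Which groups reached 1 CPM was the rule that chose the members, so the following is a description. In all 4 groups 95 members reached it, 26 did so in control and teriflunomide only, and 10 in lurbinectedin and the combination only. A further 14 reached it with teriflunomide alone. The lowest members inside the rule were LINC02614 at 1.03 CPM, LINC01238 at 1.04 and LINC02562 at 1.06 in their highest group. The nearest outside were LINC02488 at 0.997, LINC01376 at 0.976 and LINC01117 at 0.964. Members that entered through 1 or 2 groups only had to be lower in the others, so neither a count below nor a single such member stands as support for a direction.

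With lurbinectedin against control, more members were lower than higher, a description because the same group levels admitted the members. By the rule, 26 members entered through control and teriflunomide only and 10 through lurbinectedin and the combination only. A further 14 entered through teriflunomide alone, 4 through control alone, and 1 each through lurbinectedin alone and the combination alone. In edgeR's quasi-likelihood test, 96 members were lower and 32 higher at an adjusted p under 0.05, of 161 tested. The background over all 16683 genes tested was 71.6% called, 35.7% lower and 36% higher, and nothing is read from the members' counts against it. The median log2 change was -0.76 for the members and 0.05 for all genes tested. At least 2-fold, 72 called members were lower and 20 higher, beside 24.0% and 20.1% of all genes tested. Among the 131 members with a mean of at least 1 CPM over the 12 libraries, 79 were lower and 27 higher. With libraries scaled by their totals alone, the median of all genes moved to -0.18, and 102 members were lower and 24 higher.

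The deepest falls brought members close to 0. Of those named here, LINC02253, LINC02254, LINC00871, LINC02977, LINC02542, LINC00494 and LINC02511 reached 1 CPM only in groups without lurbinectedin. Their low level with lurbinectedin therefore follows from the rule. LINC03007 reached 1 CPM with both drugs as well. LINC02253 (chr15:97215812-97432094) had 2.55, 2.11 and 2.42 in control and 0.0485, 0.0782 and 0.0363 with lurbinectedin, a log2 change of -5.33 ± 0.44 (adjusted p = 1.03e-07). Its neighbour LINC02254, on the other strand with a span that overlaps it in part and no exonic base shared, went from a mean of 4.28 ± 0.199 (SD, n = 3) to 0.233 ± 0.0467. Reads of these 2 overlapping genes cannot be fully told apart, and both fell in every lurbinectedin library.

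LINC00871 (ENSG00000258700.6, chr14:45891087-46501903) has the longest genomic span of all members, 610817 bases, and overlaps no other gene. It had 5.13, 5.15 and 4.66 in control and 0.145, 0.0782 and 0.145 with lurbinectedin, a change of -5.30 ± 0.31 (adjusted p = 3.13e-09). LINC03007 (chr7:25593304-25751032), which shares exonic bases with another gene, was the most abundant of the members that fell most. Its level was 18.5, 17.5 and 18.3 in control and 1.02, 0.782 and 0.945 with lurbinectedin, and the groups were far apart. The change was -4.31 ± 0.22 (adjusted p = 9.21e-10). LINC02977, LINC02542 and LINC00494 had log2 changes of -4.19, -3.98 and -3.81. LINC02511 was at 0, 0.117 and 0.109 with lurbinectedin against 3.15, 2.54 and 2.69 in control.

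Of the strongest rises, LINC00242, LINC01772, LINC01451 and LINC02846 reached 1 CPM only in the groups given lurbinectedin, so their low control level follows from the rule; LINC00910 reached it in all 4 groups and LINC00324 in 3. LINC00242 (ENSG00000229214.2, chr6:169788790-169799549) had 0.201, 0.100 and 0.0597 in control and a mean of 2.69 ± 0.304 (SD, n = 3) with lurbinectedin, above all control libraries, a log2 change of 4.45 ± 0.35 (adjusted p = 7e-08). It shares 539 exonic bases with LINC00574 on the other strand, which rose by 2.22 ± 0.48 (adjusted p = 0.000899), so their reads cannot be told apart. LINC00910 (chr17:43338741-43389199), which shares exonic bases with another gene, reached the highest level among the strongest rises. It had 1.88, 1.67 and 1.91 in control and 15.3, 14.9 and 12.4 with lurbinectedin, a change of 2.96 ± 0.18 (adjusted p = 4.96e-09).

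LINC00324 (chr17:8220642-8224043) overlaps no other gene and rose too. Its levels were 0.905, 1.57 and 1.17 in control and between 8.90 and 10.6 with lurbinectedin, a change of 3.01 ± 0.22 (adjusted p = 3.25e-08). LINC01772 rose by 3.40 ± 0.31, and 905 of its exonic bases are shared with the pseudogene CROCCP3 on the other strand, whose change of -0.27 ± 0.23 did not pass the test. LINC01451 and LINC02846, both on chromosome 9, rose by 3.04 ± 0.36 and 2.87 ± 0.44. In both, the lowest lurbinectedin library, at 1.70 and 2.31, was above the highest control library, at 0.334 and 0.508.

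**Figure D2:**
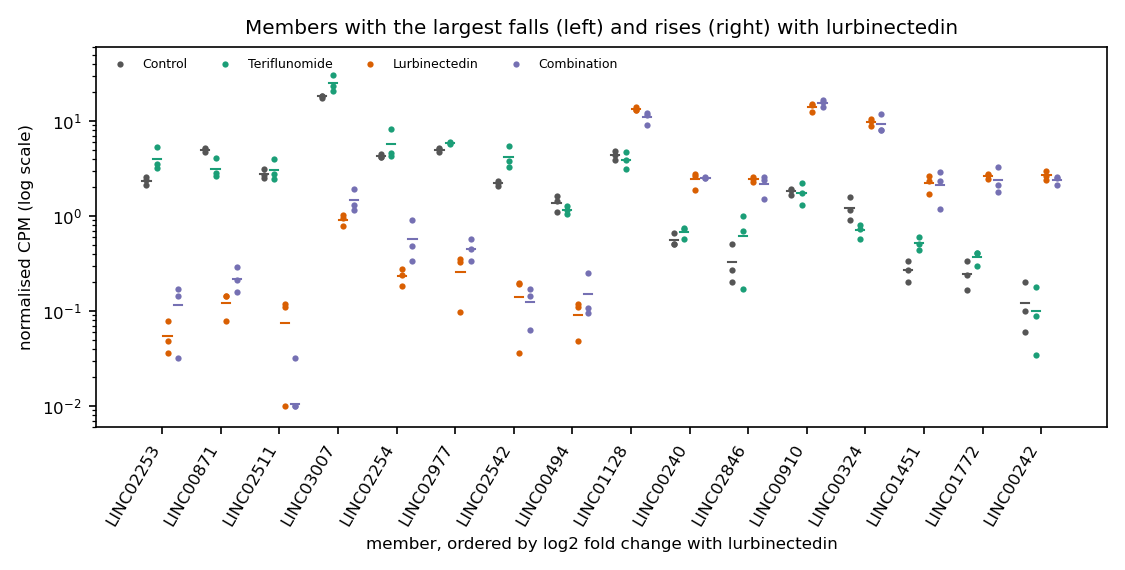
Normalised CPM (log axis) per library of the 8 members with the largest falls (left) and the 8 with the largest rises (right) with lurbinectedin; points are libraries, short lines group means, and a library at 0 is drawn at 0.01. For LINC03007 the control libraries lie at 17.5 to 18.5 and the lurbinectedin libraries at 0.782 to 1.02, and the combination libraries lie near the latter.

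The promoters of members that moved furthest are shown for the 3 largest rises and 3 largest falls whose RefSeq window begins transcription within 100 bases of the start in the count files. Each window runs from 250 bases before to 50 bases after the start (RefSeq, GRCh38.p14), with CpG dinucleotides in capitals because their number differed between the sets. The 3 that rose come first.
LINC01451 promoter, chr9:136617132-136617431, minus strand: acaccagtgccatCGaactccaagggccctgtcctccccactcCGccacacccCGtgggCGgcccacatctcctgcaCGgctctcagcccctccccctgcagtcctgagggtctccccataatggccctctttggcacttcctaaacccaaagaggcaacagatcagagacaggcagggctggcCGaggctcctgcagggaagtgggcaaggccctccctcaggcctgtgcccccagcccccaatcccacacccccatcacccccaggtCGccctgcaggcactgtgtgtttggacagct
LINC00324 promoter, chr17:8223994-8224293, minus strand: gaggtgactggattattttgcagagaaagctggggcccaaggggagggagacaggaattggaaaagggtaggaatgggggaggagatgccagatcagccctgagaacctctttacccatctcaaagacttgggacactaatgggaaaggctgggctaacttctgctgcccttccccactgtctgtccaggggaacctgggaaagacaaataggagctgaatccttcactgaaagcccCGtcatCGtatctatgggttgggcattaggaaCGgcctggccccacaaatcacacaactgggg
LINC02846 promoter, chr9:136109387-136109686, minus strand: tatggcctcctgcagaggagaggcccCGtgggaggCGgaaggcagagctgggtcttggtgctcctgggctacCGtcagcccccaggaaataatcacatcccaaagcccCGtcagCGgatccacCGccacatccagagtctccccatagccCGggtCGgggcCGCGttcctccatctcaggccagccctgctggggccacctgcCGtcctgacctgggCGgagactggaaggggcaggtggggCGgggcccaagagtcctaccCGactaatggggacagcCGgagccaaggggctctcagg
LINC02511 promoter, chr4:137212750-137213049, minus strand: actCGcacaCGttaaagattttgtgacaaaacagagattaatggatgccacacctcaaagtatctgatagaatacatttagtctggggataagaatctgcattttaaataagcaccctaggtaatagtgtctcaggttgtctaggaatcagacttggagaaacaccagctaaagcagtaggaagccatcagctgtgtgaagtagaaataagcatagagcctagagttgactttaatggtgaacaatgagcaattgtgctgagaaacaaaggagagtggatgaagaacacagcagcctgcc
LINC03007 promoter, chr7:25750983-25751282, minus strand: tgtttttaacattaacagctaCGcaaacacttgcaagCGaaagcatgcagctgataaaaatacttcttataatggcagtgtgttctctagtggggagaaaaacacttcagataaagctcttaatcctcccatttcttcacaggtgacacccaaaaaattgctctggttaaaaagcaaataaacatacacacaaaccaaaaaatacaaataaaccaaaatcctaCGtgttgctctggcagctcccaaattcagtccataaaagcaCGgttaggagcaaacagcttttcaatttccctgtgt
LINC00494 promoter, chr20:48359661-48359960, plus strand: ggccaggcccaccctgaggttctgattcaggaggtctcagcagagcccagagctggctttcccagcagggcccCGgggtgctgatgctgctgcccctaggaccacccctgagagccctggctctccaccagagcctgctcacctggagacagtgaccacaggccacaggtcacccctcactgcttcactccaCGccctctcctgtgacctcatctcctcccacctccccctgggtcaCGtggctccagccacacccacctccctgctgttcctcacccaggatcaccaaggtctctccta
LINC02846 held 15 CpG dinucleotides, and LINC02511, LINC03007 and LINC00494 held 2, 4 and 3. LINC00324, which rose, also held only 3, so the count does not divide these 6 windows.

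A window was found for 114 members and for 19052 genes in all. The median CpG count was 20 over all genes and 10 over the members; it was 14 in the 20 members that rose with lurbinectedin, 7 in the 69 that fell and 23 in the 25 that were not called. Only part of these windows begin transcription within 100 bases of the start in the count files: 10 of the 20, 35 of the 69, 16 of the 25 and 13485 of all 19052. Of the motifs searched on both strands, CCAAT was in 13 of the 20 windows of members that rose (65.0%), in 40.6% of those that fell, in 36.0% of those not called and in 36.2% of all windows. GGGCGG was in 12 of the 20, in 34.8%, in 72.0% and in 54.4%, in the same order. TATAAA was in 2 of the 20, in 14.5%, in 2 of the 25 and in 10.2%. The paired p53 consensus was in none of the members' windows and in 0.0262% of all windows. The E-box CACGTG, the cyclic AMP element TGACGTCA, the AP-1 motif TGANTCA, the ETS motif CCGGAAGT, the motif TTCNNGAA and the NRF1 consensus were each in at most 11.6% of the windows of members that rose or fell. These matches are letters in a window, not binding sites.

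The median change with lurbinectedin differed between classes of position, and the class medians did not follow the order of span. Of the 32 members that lie over another gene without shared exonic bases, 29 fell and 2 rose with lurbinectedin, with a median log2 change of -2.11 and a median span of 68504.5 bases. Of the 62 with shared exonic bases, 28 fell and 20 rose, with a median of -0.16 and a median span of 34569 bases. Among the 55 with no overlap and no near start, 32 fell and 8 rose (median -0.65, span 6876), and among the 12 with a start within 1 kb, 7 fell and 2 rose (median -0.62, span 3686.5). Over all genes tested, 35.7% were lower and 36% higher with lurbinectedin. No test was run between these classes, and their spans differ.

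**Figure D3:**
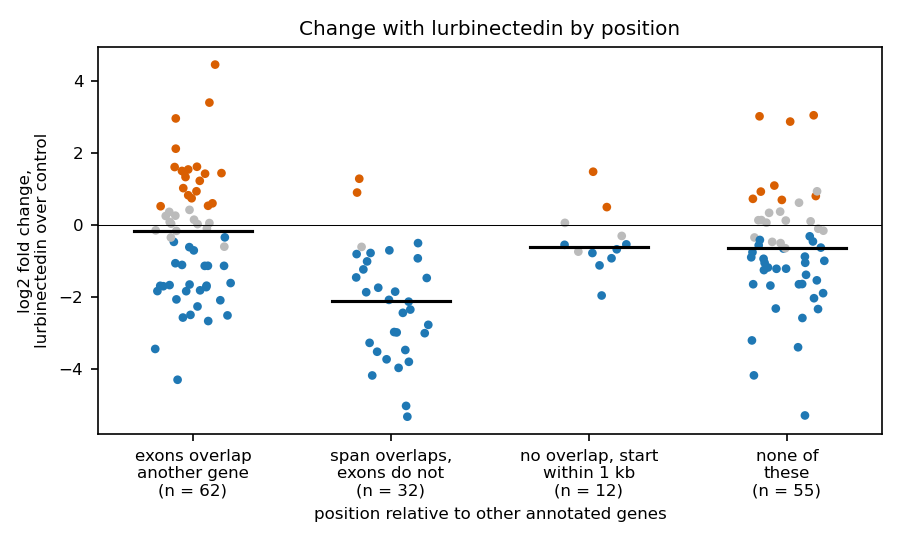
Log2 fold change of lurbinectedin over control (vertical axis) of each member, by position relative to other annotated genes (horizontal axis); orange points are called higher, blue lower and grey not called, and black lines are medians. The members whose span but not exons overlap another gene have the lowest median, -2.11.

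Across members, span and log2 change with lurbinectedin had a Spearman rho of -0.318 (n = 161), against -0.572 over 16651 nuclear genes. Among the 67 members that overlap no gene, rho was -0.160. Genes share libraries and are not replicates, so these carry no p. The share of members that fell lay furthest from that of protein-coding genes among short genes. Under 5 kb, 19 of 38 members fell, against 8.95% of 950 protein-coding genes at 1 CPM or more and 18.2% of 446 other lincRNA and antisense genes. From 5 to 20 kb, 46.9% of 49 members fell, against 11.1% and 23.1%. Over 100 kb, 76.7% of 30 members fell, against 91.0% and 67.7%. The other lincRNA and antisense genes passed the same level rule, and their shares are a description too. Over all spans, 40.0% of these 984 genes rose and 29.2% fell (median 0.26), beside 19.9% and 59.6% of members. Under 5 kb, 48.7% of them rose, beside 23.7% of members. These shares were described and not tested, and the low level at which members were admitted is part of how they were chosen. Members that entered through some groups only had to be lower in the others. Nothing is therefore read from the members' shares against those of the other sets.

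**Figure D4:**
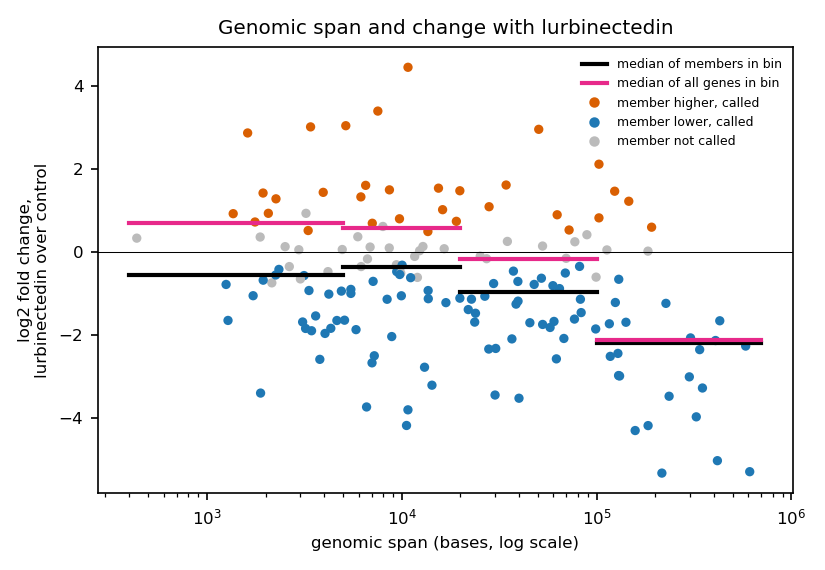
Log2 fold change of lurbinectedin over control (vertical axis) against genomic span in bases (log axis) for the 161 members; orange points are called higher, blue lower and grey not called, with bin medians of members (black) and of all nuclear genes tested (pink). Under 5 kb the medians are -0.56 and 0.69, and over 100 kb they are -2.20 and -2.14.

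Neighbours on the genome were set beside all protein-coding genes at 1 CPM or more, of which 40.5% fell and 35.3% rose with lurbinectedin. The nearest gene was taken from all protein-coding genes tested, without that limit on level, so the sets differ. A gene that overlaps the member counted as its nearest. Of the 96 members that fell, the nearest protein-coding gene fell in 51, rose in 17 and was not called in 28. Of the 32 that rose, it rose in 12, fell in 13 and was not called in 7. These counts were not tested. LINC01089 (chr12:121795267-121803906) shows an opposed pair: it rose by 1.5 ± 0.33 with lurbinectedin (adjusted p = 0.00105), while RHOF, on the same strand with 1724 exonic bases shared, fell by 1.28 ± 0.20 (adjusted p = 6.43e-05). SETD1B, a histone methyltransferase gene that starts 103 bases away on the other strand, rose by 0.59 ± 0.11 (adjusted p = 0.000345). LINC00240 rose by 2.11 ± 0.23, and the pseudogene GUSBP2, which starts 378 bases away on the other strand, fell by 2.10 ± 0.63 (adjusted p = 0.00829). LINC00240 shares exonic bases with another gene.

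With teriflunomide alone, few members changed. In edgeR, 12 members were higher and 3 lower than in control, 15 of 161, beside 6.01% of all genes tested, 3.88% higher and 2.13% lower. The median log2 change was 0.14 for members and 0.03 for all genes. This count rests on single libraries: it was 3 when either replicate 2 or replicate 3 of the control was left out, 5 without control replicate 1, 10 without either lurbinectedin replicate 2 or 3, and 21 without teriflunomide replicate 3. With libraries scaled by their totals alone, 4 members were higher and 0 lower.

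LINC01235, which shares exonic bases with another gene, had the smallest adjusted p. It had 156, 160 and 146 in control and 267, 283 and 367 with teriflunomide, groups that did not overlap, a log2 change of 0.99 ± 0.14 (adjusted p = 0.00182). LINC01719 (chr1:146052566-146061948) rose from 2.61, 2.17 and 2.78 to 5.04, 5.78 and 6.37, a change of 1.18 ± 0.18 (adjusted p = 0.00265). Both stayed called in all 19 alternatives run for them. An unnamed gene (ENSG00000287190.1) starts 322 bases from LINC01719 on the other strand and fell by 2.03 ± 0.48 (adjusted p = 0.0274).

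LINC02882 rose by 1.12 ± 0.20 (adjusted p = 0.00636), from 3.35, 2.74 and 4.06 to 6.83, 7.78 and 7.56, and stayed called in 18 of 19 alternatives. It shares exonic bases with another gene. LINC02853, the MIR4510 host, rose by 0.88 ± 0.18 (adjusted p = 0.0134), from 6.90, 6.32 and 6.90 to 10.8, 11.3 and 14.9; the call was lost without any 1 of the control libraries (adjusted p up to 0.0761). LINC00173 and LINC01852 rose by 1.43 ± 0.33 and 1.43 ± 0.30 from control means of 0.541 and 0.544. These calls held in 12 and 16 of 19 alternatives, with adjusted p up to 0.127 and 0.0770. Both, and LINC03040, reached 1 CPM with teriflunomide alone, so that they are higher there follows from the rule. LINC03040 and LINC00689 share exonic bases with another gene. LINC03040, annotated as protein coding in GENCODE 29, had 2.37, 2.13 and 0.784 with teriflunomide against at most 0.717 in control, and the lowest value came from replicate 3, the library with the high mitochondrial share; its call held in 9 of 18 alternatives. LINC02600 fell by 0.79 ± 0.20 (adjusted p = 0.0323). LINC02542, LINC00689, LINC00920 and LINC02580 passed the test with adjusted p of 0.041, 0.0417, 0.0419 and 0.0474. These 5 calls are fragile: they held in 11, 9, 9, 8 and 10 of 19 alternatives, with adjusted p up to 0.131, 0.152, 0.170, 0.169 and 0.158. Each was lost with libraries scaled by their totals alone, with the replicate number as a block and without any 1 of the control libraries.

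**Figure D5:**
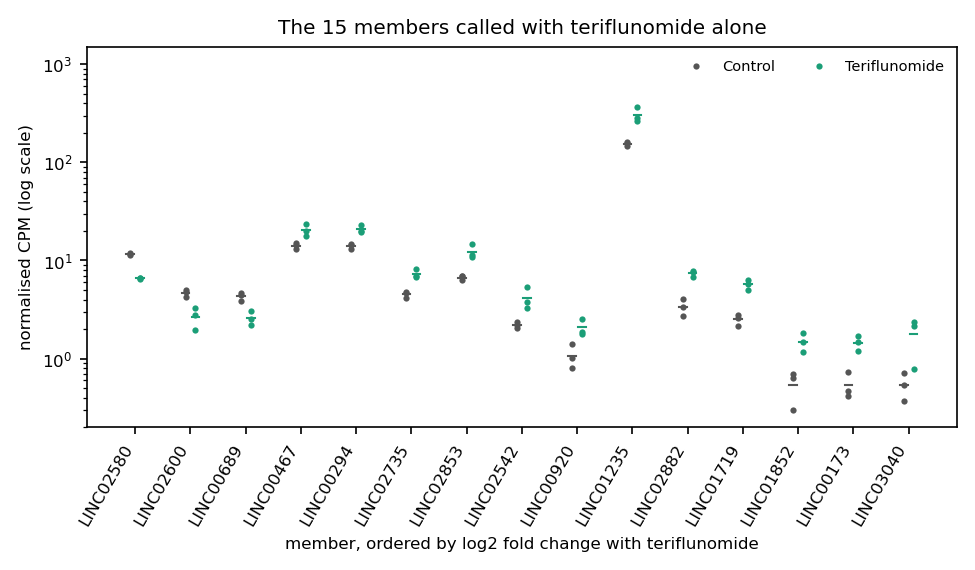
Normalised CPM (log axis) per library of the 15 members called with teriflunomide, in control (grey) and teriflunomide (green); points are libraries and short lines group means. LINC01235 is the highest member, at 146 to 160 in control and 267 to 367 with teriflunomide.

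The comparisons of each drug with control share the control libraries, so values are set side by side only. LINC02542 changed by 0.91 ± 0.24 with teriflunomide and by -3.98 ± 0.39 with lurbinectedin. LINC00294 shares exonic bases with another gene. LINC00294 rose by 0.55 ± 0.13 (adjusted p = 0.0271) and by 0.52 ± 0.13 (adjusted p = 0.00296); the former call held in 12 of 19 alternatives, with adjusted p up to 0.194, and the latter was lost with libraries scaled by their totals alone (adjusted p = 0.167).

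With both drugs, 88 members were lower and 35 higher than control in edgeR, beside 68.4% of all genes called, 34.4% lower and 34.1% higher. Against teriflunomide alone, 93 were lower and 35 higher, beside 70.9%, 35.8% and 35.2%. LINC00910 was at 14.0, 15.7 and 16.6 with both drugs and LINC00871 at 0.290, 0.211 and 0.160, both outside the range of the control and teriflunomide libraries. LINC02511 had 1 count in the 3 combination libraries together, 0 in 2 of them, against 260 in the control libraries. Its level was 231-fold lower, with a 95% exact interval of 41.0 to 9143 that covers counting error only. LINC01101 fell by 4.37 ± 0.50 (adjusted p = 3.58e-06), and LINC02298 rose by 1.62 ± 0.21 (adjusted p = 9.4e-06). LINC02298 shares exonic bases with another gene, as does LINC00472. LINC00472, host of 2 miR-30 hairpins and chosen for that, had 1.11, 1.30 and 1.31 in control and 2.64, 1.94 and 1.72 with both drugs, a change of 0.75 ± 0.32 (adjusted p = 0.0473) that held in 9 of 19 alternatives, with adjusted p up to 0.188.

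Adding teriflunomide to lurbinectedin moved no member past the test. In edgeR, 0 of 161 members and 0% of all genes tested were called between the combination and lurbinectedin; 17 members had an unadjusted p under 0.05, and DESeq2 called 1. The median log2 difference was 0.17 for members and 0.03 for all genes. This 0 also rests on a library: it became 9, all higher, without teriflunomide replicate 3, and 1 without combination replicate 2. Teriflunomide replicate 3 is in neither group and enters through the shared spread, the gene filter and the library scaling. LINC00324 was at 8.11, 11.9 and 7.98 with both drugs and between 8.90 and 10.6 with lurbinectedin, overlapping groups, a difference of -0.08 ± 0.19. LINC01235 was at 170, 158 and 119 against 119, 128 and 115, a difference of 0.30 ± 0.14 (adjusted p = 0.318). A p that misses the threshold does not show that these levels are alike.

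The interaction, the effect of teriflunomide with lurbinectedin minus its effect without, was called for 0 members in edgeR, beside 0.258% of all genes, 0.036% higher and 0.222% lower; 22 members had an unadjusted p under 0.05, DESeq2 called 2, and without teriflunomide replicate 3 edgeR called 5. LINC01719 came nearest. It was at 5.04 to 6.37 with teriflunomide, at 1.56 to 2.35 with lurbinectedin and at 1.63 to 2.01 with both, an interaction of -1.35 ± 0.27 (adjusted p = 0.0630).

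The machinery that ends and degrades such transcripts was read from lists written from general knowledge, beside the 36% of all genes tested that were higher with lurbinectedin and the 35.7% that were lower; a share near these is no result about a list. With lurbinectedin, 7 of 19 nuclear RNA decay genes were higher and 5 lower (median 0.17). MTREX, the helicase that feeds RNA to the nuclear exosome, fell by 2.06 ± 0.13 (adjusted p = 5.27e-09), and the exosome subunit gene EXOSC2 rose by 0.85 ± 0.09 (adjusted p = 1.51e-06). Of 19 cleavage and polyadenylation genes, 8 were higher and 5 lower (median 0.30), with the RNA kinase gene CLP1 up by 2.43 ± 0.13 and WDR33, which recognises the polyadenylation signal, down by 1.27 ± 0.11 on the log2 scale. Of 15 Integrator genes, 5 were higher and 9 lower (median -0.56). INTS9, a partner of the catalytic subunit, went from a mean of 33.8 ± 0.742 to 1.73 ± 0.334 (SD, n = 3), and INTS4 from 48.3 ± 1.37 to 12.8 ± 0.958. With teriflunomide, 0 of the 19 decay genes, 0 of the 19 polyadenylation genes and 1 of the 15 Integrator genes, lower, were called in edgeR. Their part in the members' levels was not tested.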

How the data were processed

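Polyadenylated RNA was sequenced from 12 SBC3 spheroid libraries, 3 in each of 4 groups taken from the treatment label. The authors deposited raw read counts per gene; per the submitters' processing notes they used fastp 0.23.2, STAR 2.7.9, Subread and featureCounts with hg38. Strand use and multi-mapping are not given in the sources used here. Symbols came from a gene name table (60507 of 60649 identifiers, 99.8%). Genes were kept by filterByExpr (16683, all 161 members) and fitted in edgeR 4.0.16 (R 4.3.3) with TMM, robust quasi-likelihood and 1 mean per group over all 12 libraries. Calls are Benjamini-Hochberg adjusted p under 0.05 over all genes in each of 6 comparisons, and every adjusted p printed is of this kind. Standard errors come from the F statistic. Tested on simulated data for lurbinectedin against control (15826 genes), the fit recovered 83% of 100 genes changed 2-fold and 100% of 100 changed 4-fold. The simulation changed few genes, evenly up and down, and kept those with few reads out of the changed set. It gave every gene the same spread and held no outlying library. In these data most genes were called, so this recovery need not apply to the members. Normalised CPM is counts scaled to the effective library size. Labels do not say that replicates are separate cultures, so p-values measure only the spread between these libraries, which may be technical. No 2 libraries agreed within sampling noise.

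The members and lists were chosen with earlier results of these data known. One LINC row is not reported here. Named members are the 8 most abundant; in each comparison of 2 groups, the 8 that rose most and the 8 that fell most among called members whose groups do not overlap and whose higher group has at least 1 CPM; members called with teriflunomide, by smallest adjusted p; and those nearest the 1 CPM limit. Alternatives were other scaling, no filter or a 1 CPM filter, a replicate block, only the groups compared, DESeq2 1.42.0, an adjusted p under 0.01, narrower member sets and leaving out each library. Motifs, spans and overlaps came from RefSeq GRCh38.p14 windows and the files' coordinates.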

Additional observations from a re-analysis of the deposited data

How the results depend on the processing

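No member named for a called change reversed direction in the comparisons and alternatives run. Of the uncalled changes, that of LINC00461 with lurbinectedin, 0.02, was -0.00730 with DESeq2's size factors, -0.22 with library size only, -0.057 with no filter, -0.00106 with only the groups compared, -0.026 with DESeq2 and -0.081 to 0.10 with 1 library left out, and the difference of LINC00324 between the combination and lurbinectedin, -0.08, ranged from -0.29 to 0.021 with 1 library left out. The cause was not tested. For teriflunomide against control, the 15 called members became 4 with library size only, 26 with no filter, 26 with DESeq2, 5 with only the groups compared, 3 at an adjusted p under 0.01, and 6 among members that overlap no gene; leaving out 1 library gave 3 to 21. For the combination against lurbinectedin, 0 became 2 with no filter and 1 with DESeq2, and leaving out 1 library gave 0 to 9. For the interaction, 0 became 2 with no filter and 2 with DESeq2, and leaving out 1 library gave 0 to 5. Among the 67 members that overlap no gene, a smaller set by construction, 49 were called for lurbinectedin against control, 44 for the combination against control and 50 for the combination against teriflunomide. Leaving out 1 library gave 118 to 135, 113 to 128 and 117 to 129 for these comparisons. Without both teriflunomide replicate 3 and combination replicate 2, a choice made after seeing the data, teriflunomide against control gave 32, the combination against lurbinectedin 15 and the interaction 13. With a replicate block, teriflunomide against control gave 5 and lurbinectedin against control 124. Whether the replicate numbers pair the samples is not stated in the labels. Same-numbered libraries deviated from their group means with correlations from -0.402 to 0.144, and differently numbered ones from -0.206 to 0.363. Deviations from means of 3 libraries cannot decide whether the samples are paired. Members near 1 CPM rest on few reads, which limits the size of fall that can be measured.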

Other observations

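Below the 1 CPM rule, 104 LINC-numbered rows were still tested in edgeR. With lurbinectedin against control, 26 of them were higher and 37 lower, with a median log2 change of -0.30. Over all genes tested, 36% were higher and 35.7% lower, and a count near these shares is no result about these rows. With the combination, 23 were higher and 33 lower, beside 34.1% and 34.4% of all genes tested. With teriflunomide alone 1 was higher and 0 lower, beside 3.88% and 2.13%. Among the members, the 20 with a single exon block had 6 higher and 8 lower with lurbinectedin (median -0.15). The 141 with more had 26 higher and 88 lower (median -0.93). These counts too stand beside the 36% higher and 35.7% lower of all genes tested. The members with a single block have a median span of 2385.5 bases and those with more of 23890 bases.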
